A study of Mus musculus with 30 samples.

Results

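Naive mouse embryonic stem cells that lack both KMT2C and KMT2D and carry GRHL2-ERT were compared after 16 h of tamoxifen and after 16 h of ethanol, across all measured genes. The members are the 6 libraries that the labels give for this line at this time, 3 with tamoxifen and 3 with ethanol, of 30 libraries in the series. RNA was measured by QuantSeq, which reads the 3' ends of polyadenylated transcripts. The other libraries come from GRHL2-ERT Kmt2c-KO cells with either treatment, from the same double-KO line at 8 h, and from Kmt2c-KO cells without GRHL2-ERT treated with tamoxifen. The whole series forms 10 groups of 3.

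Both groups of the comparison have the genotype labelled Kmt2cKO; Kmt2dKO;GRHL2-ERT, on a mixed C57BL/6J x 129 background, and both were grown in serum with LIF and inhibitors of MEK and GSK3. The Kmt2c-KO line used beside them has the genotype labelled Kmt2cKO; Kmtd fl/fl;GRHL2-ERT. Each line was selected as clones of similar GRHL2 level after transposition of the GRHL2-ERT system, per the series' design text, so line and clone cannot be told apart. No double-KO group without GRHL2-ERT was analysed here, so a response of double-KO cells to tamoxifen itself cannot be told apart from one to nuclear GRHL2. Separate cultures are not stated for the replicates, so each p measures only the spread between libraries. Unless stated otherwise, that spread was estimated over all 30 libraries of the series.

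GRHL2 is a grainyhead-like transcription factor that maintains epithelial identity, in part by switching on genes of cell adhesion and cell junctions. Fused to the ligand-binding domain of the estrogen receptor, it is held outside the nucleus until tamoxifen binds the domain. KMT2C and KMT2D are the catalytic subunits of related COMPASS complexes that methylate histone H3 lysine 4 at enhancers, and the comparison asks which genes still respond to nuclear GRHL2 when both are missing.

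The 3 tamoxifen libraries held 12.3 to 13.7 M recovered reads and the 3 ethanol libraries 15.4 to 16.98 M, and 3 reads in a library stood for 0.177 to 0.243 CPM (read counts scaled to a common library total). Tamoxifen replicate 2 stood apart from the other 5 libraries. On the first principal component of the 6 libraries (46.9% of variance) it lay at -40.9, against 1.80 and 8.05 for the other tamoxifen libraries and 7.40 to 12.8 for the ethanol libraries. Of 9064 genes with a mean of at least 5 CPM, 233 were in this library under 0.5 times the lowest of the other 5, against 0 to 4 genes for each other library. The second component (14.9%) placed tamoxifen replicates 1 and 3 at 13.9 and 15.2, tamoxifen replicate 2 at -3.20 and the ethanol libraries between -9.18 and -8.30. Values without this library are given beside the results they touch most.

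Tags of Grhl2, which cannot tell the transgene from the gene itself, were present in both groups at 47.9, 70.3 and 54.4 CPM in tamoxifen libraries, against 47.0, 48.9 and 61.5 CPM in ethanol libraries. The groups overlapped, and limma gave a log2 fold change of 0.12 ± 0.25 (SE; adjusted p = 1.0). Esr1, the estrogen receptor gene, had 28.5 to 32.2 CPM with tamoxifen and 26.1 to 35.1 CPM with ethanol. Kmt2c had 19.95 to 22.9 CPM with tamoxifen and 18.5 to 19.3 CPM with ethanol, and Kmt2d had 7.14 to 10.8 CPM with tamoxifen and 6.62 to 8.18 CPM with ethanol. The deleted part of neither gene is given in the sources used here, so these 3' tags do not check the knockouts. Defining transcripts of the labelled naive cells were present: Pou5f1 ran from 305 to 386 CPM and Zfp42 from 746 to 894 CPM over the 6 libraries. Nanog had 845, 486 and 801 CPM with tamoxifen and 859 to 967 CPM with ethanol, with the lowest value in tamoxifen replicate 2.

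Few genes differed between tamoxifen and ethanol in double-KO cells at 16 h. Among 12414 tested genes, 4 were higher (0.0322%) and 1 was lower (0.00806%) with tamoxifen, 0.0403% in all, at an adjusted p under 0.05 (limma, Benjamini-Hochberg over all tested genes), and 519 (4.18%) had an unadjusted p under 0.05. Epcam and Cldn4, which encode an epithelial adhesion protein and a tight-junction claudin, Tmem54, which encodes a membrane protein, and Arap2, which encodes a GTPase-activating protein for ARF proteins, rose. Spats2l fell. Log2 fold changes are on the log2(CPM + 1) scale, which understates changes of scarce transcripts, and in bulk RNA more cells that express a gene and more RNA per cell cannot be told apart. As 0.0403% of all tested genes passed, a gene list without a called member says little about its members.

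**Figure D1:**
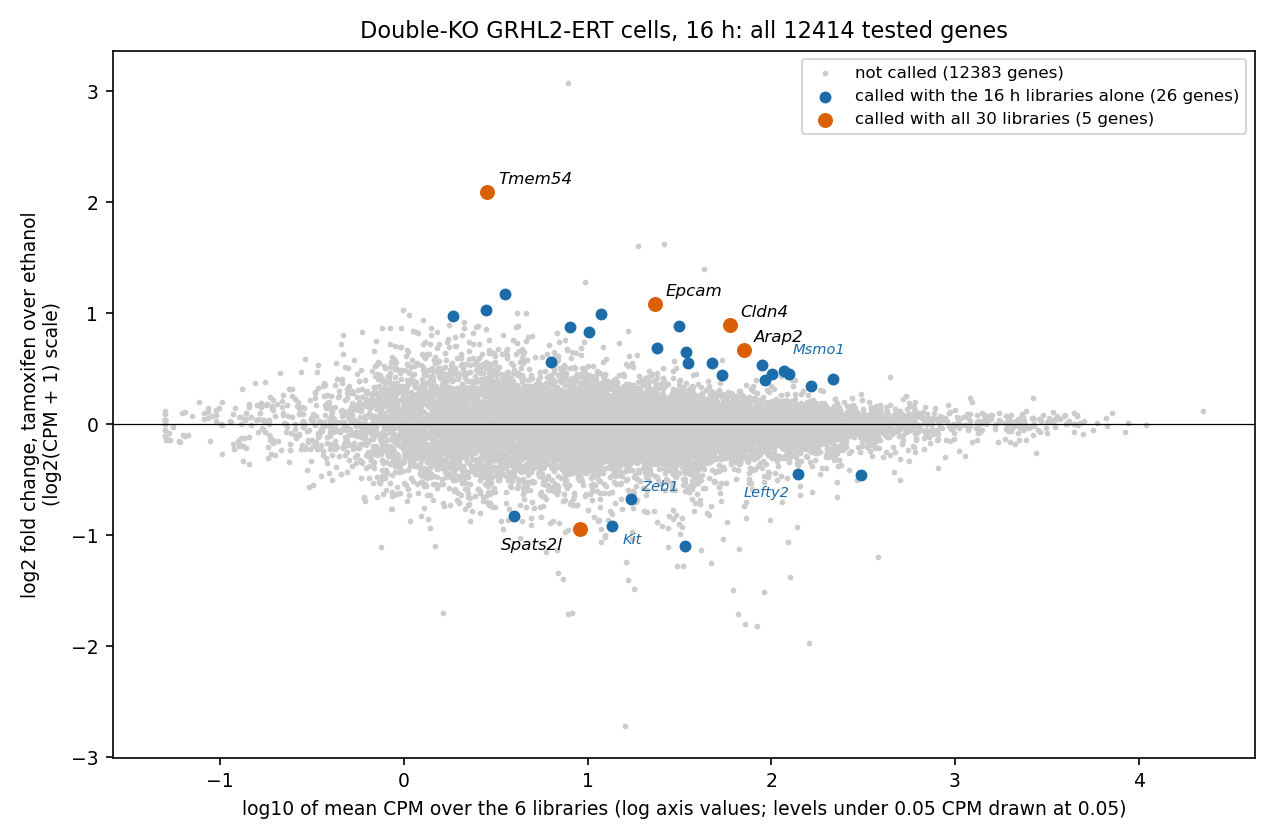
Log2 fold change (tamoxifen over ethanol, log2(CPM + 1) scale) of each of 12414 tested genes in double-KO GRHL2-ERT cells at 16 h, against log10 of its mean CPM over the 6 libraries. Orange points are the 5 genes called with all 30 libraries. Blue points are the further 26 genes called with the 16 h libraries alone, and grey points the rest. Tmem54 at 2.09 is the highest called gene. The uncalled Sprr2a1 at 3.08 lies above it, and several uncalled grey points lie lower than any called gene.

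Tmem54 (mm10, chromosome 4, 129105548 to 129111626, plus strand) had 5.75, 5.19 and 4.73 CPM in tamoxifen libraries, against 0.744, 0.177 and 0.519 CPM in ethanol libraries. These values rest on 63 to 79 reads with tamoxifen and 3 to 12 reads with ethanol, so the ethanol level is close to the counting floor. Every tamoxifen library lay above every ethanol library, and the means of 5.23 ± 0.510 CPM with tamoxifen and 0.480 ± 0.286 CPM with ethanol (SD, n = 3 each) differed 10.9-fold (log2 fold change 2.09 ± 0.25; limma adjusted p = 4.3e-05). Kmt2c-KO cells without GRHL2-ERT had 0.426 ± 0.312 CPM (n = 3) after 16 h of tamoxifen, near the ethanol level of the double-KO line.

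Epcam (chromosome 17, 87635979 to 87651129, plus strand) had 37.0, 27.2 and 31.9 CPM with tamoxifen and 12.9, 16.5 and 14.2 CPM with ethanol, without overlap. The mean of 32.0 ± 4.87 CPM was 2.20 times the ethanol mean of 14.6 ± 1.85 CPM (1.08 ± 0.15; limma adjusted p = 3.0e-04). Its ethanol level differed between lines: it was 14.6 ± 1.85 CPM in double-KO cells and 28.8 ± 2.42 CPM in Kmt2c-KO cells with GRHL2-ERT (-0.94 ± 0.15; limma adjusted p = 6.0e-06). With tamoxifen the lines overlapped, at 27.2 to 37.0 CPM in double-KO cells and 33.0 to 45.1 CPM in Kmt2c-KO cells.

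Cldn4 (chromosome 5, 134945119 to 134946934, minus strand) had 75.4, 81.0 and 75.7 CPM with tamoxifen and 41.9, 39.6 and 42.3 CPM with ethanol. The groups were far apart relative to their spread, with a ratio of 1.88 (0.89 ± 0.13; limma adjusted p = 1.3e-03). Arap2 (chromosome 5, 62602445 to 62766159, minus strand) had 82.9, 93.7 and 84.9 CPM with tamoxifen and 51.9, 56.5 and 54.6 CPM with ethanol, a ratio of 1.60 without overlap (0.67 ± 0.12; limma adjusted p = 0.021). The ethanol level of Arap2 passed as higher in the double-KO line than in the Kmt2c-KO line, at 54.4 ± 2.33 CPM in double-KO cells and 19.6 ± 1.74 CPM in Kmt2c-KO cells (1.43 ± 0.12; limma adjusted p = 1.5e-10). Median-of-ratios scaling lowers the median difference between the lines in ethanol over all genes by 0.30 on the log2 scale, and both this difference (1.10 ± 0.13) and that of Epcam (-1.26 ± 0.14) keep their direction under it.

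Spats2l (chromosome 1, 57774162 to 57948394, plus strand) had 6.84, 4.05 and 6.99 CPM with tamoxifen and 11.7, 11.2 and 13.6 CPM with ethanol, a ratio of 0.491 without overlap (-0.94 ± 0.18; limma adjusted p = 0.049). The lowest of the 6 values was that of tamoxifen replicate 2. Without that library Tmem54, Epcam and Cldn4 were still called, while Arap2 (0.62; limma adjusted p = 0.21) and Spats2l (-0.73; limma adjusted p = 0.43) were not. These last 2 calls were also lost without any 1 of the ethanol libraries and with median-of-ratios scaling (limma adjusted p = 0.068 for each), and that of Arap2 without tamoxifen replicate 3 (limma adjusted p = 0.059). Spats2l was also not called with voom weights (limma adjusted p = 0.089) or with the libraries of the comparison alone (limma adjusted p = 0.22).

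**Figure D2:**
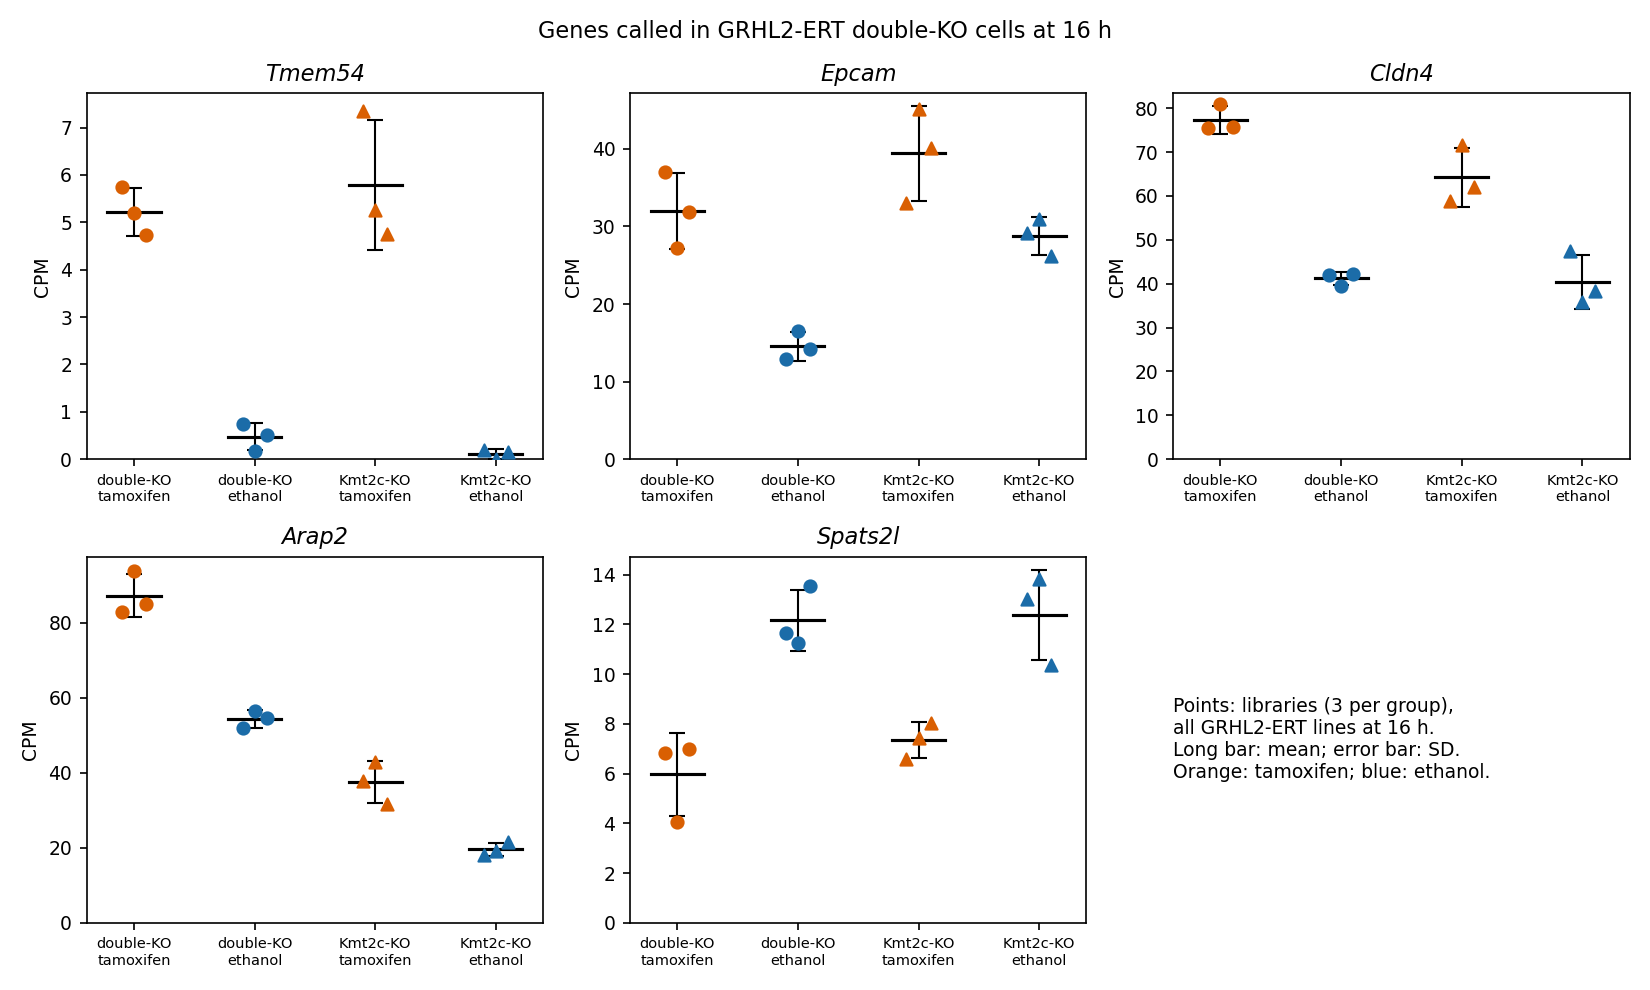
CPM of the 5 called genes in each 16 h library of the GRHL2-ERT lines, with circles for double-KO and triangles for Kmt2c-KO cells, orange for tamoxifen and blue for ethanol; long bars are means and error bars SD over 3 libraries. In double-KO cells the tamoxifen and ethanol libraries do not overlap for any of the 5 genes, and the ethanol levels of Epcam and Arap2 differ between the lines.

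The promoters of the 4 genes that rose are shown because 2 of them hold the core of the sequence that grainyhead-like factors are known to bind. They run from 250 bases before to 50 bases after the RefSeq start (GRCm38.p6), are written 5' to 3' on the gene's strand, and have ACCGGT, which is its own reverse complement, and ACTGGT, with its reverse complement ACCAGT, in capitals. These motifs were chosen after the promoters had been seen. The windows are chr17:87635729-87636028 (plus strand) for Epcam, chr5:134946885-134947184 (minus strand) for Cldn4, chr4:129105298-129105597 (plus strand) for Tmem54 and chr5:62766128-62766427 (minus strand) for Arap2.
Epcam: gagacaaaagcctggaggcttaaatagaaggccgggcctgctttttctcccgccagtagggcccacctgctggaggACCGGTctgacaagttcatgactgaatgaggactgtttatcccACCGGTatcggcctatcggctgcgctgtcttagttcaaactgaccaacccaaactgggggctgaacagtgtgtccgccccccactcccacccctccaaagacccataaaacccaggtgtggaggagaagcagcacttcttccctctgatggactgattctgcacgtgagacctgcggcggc
Cldn4: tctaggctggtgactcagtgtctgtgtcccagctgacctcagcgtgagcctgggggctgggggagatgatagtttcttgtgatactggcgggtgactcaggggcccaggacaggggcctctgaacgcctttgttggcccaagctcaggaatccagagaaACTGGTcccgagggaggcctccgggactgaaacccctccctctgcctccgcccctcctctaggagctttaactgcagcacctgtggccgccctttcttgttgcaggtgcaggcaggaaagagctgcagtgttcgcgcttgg
Tmem54: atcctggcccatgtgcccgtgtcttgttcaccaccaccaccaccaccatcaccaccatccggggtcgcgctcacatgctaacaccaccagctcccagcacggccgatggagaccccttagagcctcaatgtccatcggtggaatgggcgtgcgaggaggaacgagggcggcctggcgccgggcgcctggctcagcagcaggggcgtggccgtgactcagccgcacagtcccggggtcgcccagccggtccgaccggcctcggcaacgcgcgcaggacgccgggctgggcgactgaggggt
Arap2: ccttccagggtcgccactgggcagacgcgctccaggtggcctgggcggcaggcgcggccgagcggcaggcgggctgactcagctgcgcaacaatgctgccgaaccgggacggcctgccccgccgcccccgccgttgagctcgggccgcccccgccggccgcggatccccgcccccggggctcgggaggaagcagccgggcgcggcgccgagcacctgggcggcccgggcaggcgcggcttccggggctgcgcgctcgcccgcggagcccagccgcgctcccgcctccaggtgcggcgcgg

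The Epcam promoter held ACCGGT at 2 places, beginning 174 and 131 bases before the start, and the Cldn4 promoter held ACTGGT once, beginning 91 bases before it. The windows of Tmem54 and Arap2 held neither 6-letter motif on either strand, which says only that these letters are not in these windows. RefSeq listed 2 promoters for Tmem54, and the other is not shown. Of 32851 RefSeq mouse promoters, 2.33% held ACCGGT and 10.8% held ACTGGT, and 12.9% held either. Among the promoters of tested genes the shares were 3.27%, 8.13% and 11.2%, so a match to ACTGGT alone is common. Spats2l, which fell, also held ACTGGT once, beginning 15 bases before its RefSeq start; that start lies 71409 bases from the GENCODE start, so its window is not printed. The longer forms AACCGGTT and AACTGGTT (reverse complement AACCAGTT) were found in 0.146% and 0.776% of all promoters and in none of these 4.

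A larger set of genes passed when only the 16 h libraries shared the estimate of spread. That fit called 24 genes higher (0.193%) and 7 lower (0.0564%) with tamoxifen, all 5 above among them, and 973 genes (7.84%) had an unadjusted p under 0.05. The rest of this paragraph and the next one give calls of this fit, with its limma adjusted p, and most of these genes were named after their values were seen. Cd24a, a surface glycoprotein, had 105, 97.1 and 112 CPM with tamoxifen and 69.1, 74.7 and 72.6 CPM with ethanol (adjusted p = 0.0061). Tmem79, which encodes a membrane protein of the epidermis, had 14.7, 18.5 and 14.9 CPM with tamoxifen and 8.62, 8.07 and 6.10 CPM with ethanol (adjusted p = 0.0098). The groups overlapped for neither gene.

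Further increases in that fit were Pea15a, a cytoplasmic phosphoprotein that binds ERK (41.3 ± 5.32 CPM with tamoxifen and 21.8 ± 0.939 CPM with ethanol), Limk2, a kinase that phosphorylates cofilin (42.5 ± 6.76 CPM with tamoxifen and 26.5 ± 2.19 CPM with ethanol), and Sord, sorbitol dehydrogenase (10.8 ± 2.09 CPM with tamoxifen and 5.34 ± 0.388 CPM with ethanol). Tfap2c, a transcription factor of trophoblast and surface ectoderm, had 29.6 ± 3.21 CPM with tamoxifen and 18.0 ± 1.98 CPM with ethanol. Slc9a3r1, a scaffold below the apical membrane, had 13.4 ± 4.94 CPM with tamoxifen and 6.81 ± 0.242 CPM with ethanol, and its tamoxifen libraries spread from 8.81 to 18.6 CPM. Other increases included Ppp1r13l, Hsbp1l1, Trim2, Dhrs4, 1700097N02Rik, Msmo1, Atox1, Wfdc2, Tuba4a, Hmgcs1, Rab11a and Atp6v1d, with log2 fold changes from 0.35 to 1.03. The decreases besides Spats2l were Gm13889, at 20.7 to 22.4 CPM with tamoxifen and 45.4 to 47.3 CPM with ethanol, Kit, a receptor tyrosine kinase (9.23 ± 2.59 CPM with tamoxifen and 17.9 ± 1.80 CPM with ethanol), Gnb4 (2.61 ± 0.550 CPM with tamoxifen and 5.35 ± 0.434 CPM with ethanol), Zeb1, Apela and Lefty2. The fit over all 30 libraries left each gene named here, other than the 5 above, over the threshold, with limma adjusted p from 0.091 to 1.0.

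Genes known as direct or likely targets of GRHL2 in epithelia leaned upward. Of 47 listed genes 41 were tested, and 2 rose (Epcam and Cldn4), 0 fell and 39 did not pass, with 31 log2 fold changes above 0 and a median of 0.19, against 49.6% above 0 and a median of -0.00 over all tested genes. In 10 of the 41 every tamoxifen library lay above every ethanol library, a pattern that 7.45% of all tested genes showed, and in 0 of them below (5.97% of all). Ovol2, a repressor of mesenchymal genes, had 5.46, 6.65 and 5.11 CPM with tamoxifen and 2.54, 3.06 and 2.34 CPM with ethanol (0.88 ± 0.33; limma adjusted p = 0.89). Esrp1, which directs epithelial splicing, had 2.11, 1.78 and 2.03 CPM with tamoxifen and 0.682, 1.18 and 1.04 CPM with ethanol (0.60 ± 0.27; limma adjusted p = 1.0). Neither gene overlapped between groups, and neither passed. Without tamoxifen replicate 2 the list's median was 0.17, with 32 above 0. Summed over the list, levels were 837 to 882 CPM with tamoxifen and 729 to 752 CPM with ethanol. Abundant members such as Cdh1 and the called Cldn4 weigh more in this sum than scarce ones, so it does not describe the list as a whole.

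Junction genes other than Cldn4 did not pass, and 0.0403% of all tested genes did. Of 20 tested genes of desmosomes and adherens junctions (22 listed) 0 passed, 18 log2 fold changes were above 0, and the median was 0.19 (0.15 without tamoxifen replicate 2). Evpl, which encodes envoplakin of the cornified envelope, had 1.67, 1.14 and 3.53 CPM with tamoxifen and 0.496, 0.589 and 1.04 CPM with ethanol (0.81 ± 0.28; limma adjusted p = 0.74). Cdh1, E-cadherin, had 146, 195 and 180 CPM with tamoxifen and 139, 137 and 155 CPM with ethanol, with overlap (0.26 ± 0.13; limma adjusted p = 1.0). Of 25 tested tight-junction and polarity genes (29 listed) Cldn4 rose, 0 fell, 16 were above 0 and the median was 0.05 (18 above 0 and 0.09 without tamoxifen replicate 2). Keratins, the intermediate filament proteins of epithelia, had 9 of 15 tested and 0 passing, with 8 above 0 and a median of 0.19. Krt7 had 3.28, 2.27 and 2.86 CPM with tamoxifen and 2.42, 1.00 and 1.95 CPM with ethanol, with overlap. The junction and keratin lists share members with the list of GRHL2 targets, among them Cdh1, Dsp, Ppl, Evpl, Perp, Cldn4, Krt8, Krt18 and Krt19. The medians of these lists are therefore not separate results.

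**Figure D3:**
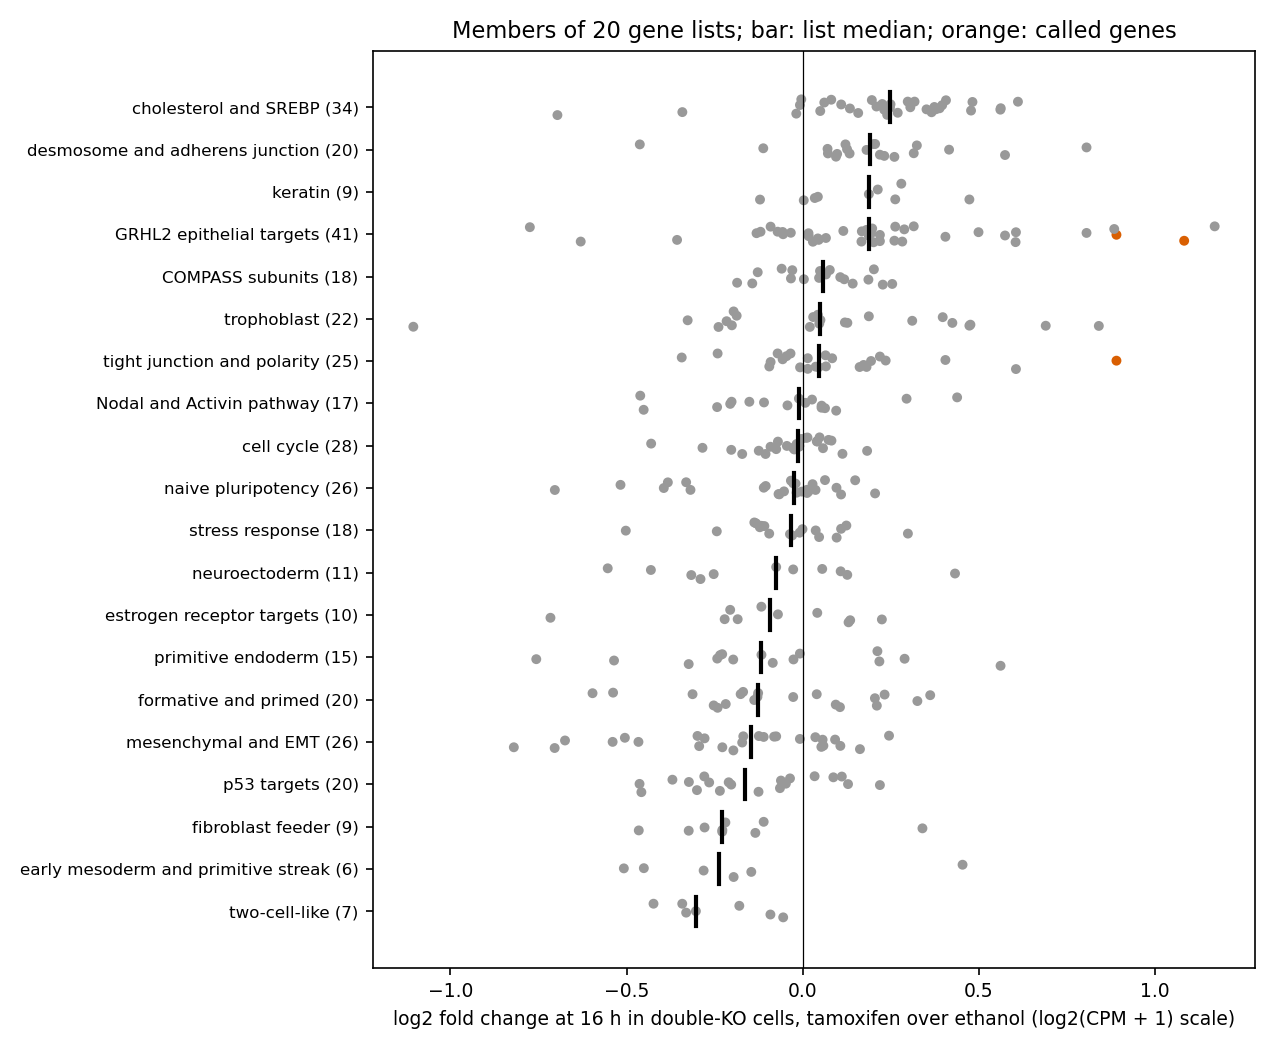
Log2 fold changes at 16 h (tamoxifen over ethanol, log2(CPM + 1) scale) of the tested members of 20 gene lists in double-KO cells, with the number of members in brackets, the list median as a bar and called genes in orange. Cholesterol and SREBP genes have a median of 0.25 and lie almost all above 0, mesenchymal genes have a median of -0.15, and naive pluripotency and cell cycle genes centre near 0.

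Mesenchymal genes leaned downward without any single gene passing in the fit over all libraries. Of 36 listed genes 26 were tested, 0 rose and 0 fell, 18 log2 fold changes were below 0, and the median was -0.15 (-0.10 without tamoxifen replicate 2). In 7 genes the tamoxifen libraries all lay below the ethanol libraries (5.97% of all tested genes did), and in 1 all above. Zeb1, a repressor of epithelial genes that GRHL2 is known to oppose, had 11.4, 15.8 and 12.3 CPM with tamoxifen and 21.5, 22.9 and 19.9 CPM with ethanol (-0.67 ± 0.17; limma adjusted p = 0.28, and 0.044 with the 16 h libraries alone). Vim, vimentin, had 93.4, 75.8 and 97.5 CPM with tamoxifen and 129, 132 and 117 CPM with ethanol (-0.50 ± 0.17; limma adjusted p = 0.70). Cdh2, N-cadherin, had 16.9, 10.2 and 14.7 CPM with tamoxifen and 24.9, 22.4 and 21.4 CPM with ethanol (-0.70 ± 0.24; limma adjusted p = 0.72). The groups overlapped for none of these 3 genes, and in Vim and Cdh2 tamoxifen replicate 2 was the lowest library. Fibroblast feeder markers, with 9 of 15 tested, summed to 12.0 to 12.8 CPM with tamoxifen and 14.2 to 15.1 CPM with ethanol, with a median of -0.23 and 8 of 9 below 0, while Col3a1, Dcn, Lum, Postn, Fbln2 and Pdgfrb were not among the tested genes; the part of these markers in the mesenchymal values was not tested.

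Cholesterol synthesis and SREBP target genes, whose products make sterols and take up lipoprotein, were the list with the highest median of the 20. Of 35 listed genes 34 were tested, 0 rose and 0 fell in the fit over all libraries, 29 log2 fold changes were above 0, and the median was 0.25. The tamoxifen libraries all lay above the ethanol libraries in 18 of the 34 genes (7.45% of all tested genes did), and 12 of the 34 had an unadjusted p under 0.05 (4.18% of all). Msmo1, a sterol demethylase, had 135, 129 and 149 CPM with tamoxifen and 92.6, 98.8 and 103 CPM with ethanol (0.48 ± 0.11; limma adjusted p = 0.11, and 0.0061 with the 16 h libraries alone). Hmgcs1, HMG-CoA synthase, had 240, 248 and 252 CPM with tamoxifen and 188, 183 and 185 CPM with ethanol (0.41 ± 0.10; limma adjusted p = 0.28, and 0.0061 with the 16 h libraries alone). In both genes the tamoxifen libraries lay close together and clear of the ethanol libraries.

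No other member of the cholesterol list passed, with all libraries or with the 16 h libraries alone. Dhcr7, the last enzyme of cholesterol synthesis, had 15.7, 13.0 and 15.6 CPM with tamoxifen and 10.4, 9.25 and 9.28 CPM with ethanol (0.56 ± 0.16; limma adjusted p = 0.44). Idi1 had the lowest value of the list, at 105, 12.3 and 84.5 CPM with tamoxifen and 78.9, 84.2 and 74.5 CPM with ethanol, and its log2 fold change was -0.70 with tamoxifen replicate 2 and 0.25 without it. The list's median without that library was 0.28, with 32 of 34 above 0. In the Kmt2c-KO line at 16 h the list's median was 0.17, and in the double-KO line at 8 h it was -0.03.

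No pluripotency gene passed, and 0.0403% of all tested genes did. The 26 genes of the naive pluripotency list had a median of -0.02 with 10 above 0 (-0.00 with 13 above 0 without tamoxifen replicate 2). In 5 of the 26 all tamoxifen libraries lay below all ethanol libraries (5.97% of all tested genes did), and in 0 all above (7.45% of all). The 20 tested formative and primed genes (23 listed) had a median of -0.13 with 12 below 0. In the Nodal and Activin list, with 17 of 22 tested, 0 passed and the median was -0.01 (0.00 without tamoxifen replicate 2), while Lefty2 and Apela were lower with the 16 h libraries alone. Lefty2, a secreted inhibitor of Nodal, had 101, 126 and 128 CPM with tamoxifen and 166, 163 and 155 CPM with ethanol (-0.45 ± 0.11; limma adjusted p = 0.18, and 0.0098 with the 16 h libraries alone). Apela, a secreted peptide that binds the apelin receptor, had 249, 284 and 242 CPM with tamoxifen and 337, 326 and 409 CPM with ethanol (-0.46 ± 0.11; limma adjusted p = 0.18, and 0.030 with the 16 h libraries alone). The groups overlapped for neither gene.

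Trophoblast genes, with 22 of 25 tested, had 0 passing, 15 above 0 and a median of 0.05 (16 above 0 and 0.11 without tamoxifen replicate 2). Their log2 fold changes ran from -1.11 to 0.84. All tamoxifen libraries lay above all ethanol libraries in 6 of the 22 (7.45% of all tested genes did) and below in 3 (5.97% of all). Wnt7b, a Wnt ligand, had 1.67, 1.54 and 1.88 CPM with tamoxifen and 0.248, 1.06 and 0.324 CPM with ethanol, without overlap (0.84 ± 0.24; limma adjusted p = 0.39). Primitive endoderm (15 of 24 tested, median -0.12), early mesoderm and primitive streak (6 of 15, median -0.24) and neuroectoderm genes (11 of 19, median -0.08, and -0.12 without tamoxifen replicate 2) had 0 passing each. Foxa2, a factor of endoderm, had 4.15, 2.76 and 3.61 CPM with tamoxifen and 4.96, 8.30 and 6.75 CPM with ethanol (-0.76 ± 0.32; limma adjusted p = 1.0). Sox1, a neural factor, had 32.5, 23.6 and 31.6 CPM with tamoxifen and 41.2, 42.6 and 45.2 CPM with ethanol (-0.55 ± 0.20; limma adjusted p = 0.82). Neither gene overlapped between the groups, and neither passed.

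Among uncalled genes with separate groups and an unadjusted p under 0.01, the largest increases included Ppp1r13l, Krtdap, Soga3, Tmem79, Hsbp1l1, Bmp8b and Hopx, with log2 fold changes from 0.89 to 1.03. Krtdap, a secreted protein of differentiating keratinocytes, had 5.10, 7.78 and 6.76 CPM with tamoxifen and 3.04, 2.53 and 2.59 CPM with ethanol (1.01 ± 0.28; limma adjusted p = 0.38). Ppp1r13l, an inhibitor of p53, had 4.005, 3.41 and 4.89 CPM with tamoxifen and 1.61, 1.18 and 1.69 CPM with ethanol (1.03 ± 0.25; limma adjusted p = 0.24). The 8 largest decreases were Crtc2, Lix1l, Pank4, Kif18b, Slc16a9, Zfp455, Kit and Cebpb, from -1.70 to -0.89. Crtc2, a coactivator of CREB, had 8.15, 0.162 and 4.89 CPM with tamoxifen and 10.5, 15.2 and 10.5 CPM with ethanol, and its log2 fold change was -1.70 with tamoxifen replicate 2 and -0.81 without it. In 7 of these 8 genes the lowest library was tamoxifen replicate 2, the exception being Zfp455. Kit had 10.6, 6.24 and 10.9 CPM with tamoxifen, against 19.5, 18.1 and 16.0 CPM with ethanol, and was lower in every tamoxifen library.

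The response of the double-KO line was next set beside that of the Kmt2c-KO line at 16 h, which keeps the Kmt2d alleles labelled fl/fl. No gene differed in response between the lines by limma, with 315 genes (2.54%) at an unadjusted p under 0.05. With array weights 18 genes differed (8 more positive and 10 more negative in double-KO cells), and with voom weights 0 did, with 259 at an unadjusted p under 0.05. Among the called genes the difference of responses, double-KO minus Kmt2c-KO, was 0.65 for Epcam (95% interval 0.23 to 1.07; unadjusted p = 0.0040 and limma adjusted p = 1.0), -0.51 for Tmem54 (-1.22 to 0.21), 0.23 for Cldn4 (-0.15 to 0.62), -0.23 for Arap2 (-0.58 to 0.13) and -0.27 for Spats2l (-0.80 to 0.27). The intervals of Tmem54, Cldn4, Arap2 and Spats2l include 0. The tamoxifen responses of the lines share no libraries.

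Of the 36 genes called higher in Kmt2c-KO cells at 16 h (0.29% of tested genes; 1 was lower, 0.00806%), 3 were called in double-KO cells (Tmem54, Arap2 and Cldn4). In double-KO cells 34 of the 36 log2 fold changes were above 0, 25 had all tamoxifen above all ethanol libraries (7.45% of all tested genes did) and 24 had an unadjusted p under 0.05 (4.18% of all), with a median of 0.47. Their median in Kmt2c-KO cells, 1.16, comes from the values that chose them and cannot be read against the 0.47. Acsl5, a fatty acid CoA ligase, had 16.6, 12.2 and 12.48 CPM with tamoxifen and 8.99, 10.2 and 9.80 CPM with ethanol in double-KO cells, and 9.68, 13.1 and 14.7 CPM with tamoxifen and 3.55, 2.22 and 2.59 CPM with ethanol in Kmt2c-KO cells. Perp, a desmosomal membrane protein, had 83.4, 70.9 and 74.9 CPM with tamoxifen and 63.8, 68.3 and 64.0 CPM with ethanol in double-KO cells, and 11.5, 12.9 and 12.3 CPM with tamoxifen and 4.75, 5.80 and 4.31 CPM with ethanol in Kmt2c-KO cells. Both genes had a higher ethanol level in the double-KO line (1.51 ± 0.21 for Acsl5 and 3.48 ± 0.16 for Perp; limma adjusted p = 1.3e-06 and 2.9e-16). The difference of responses passed for neither (limma adjusted p = 0.65 for each), and the Kmt2c-KO libraries in it had chosen the genes.

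**Figure D4:**
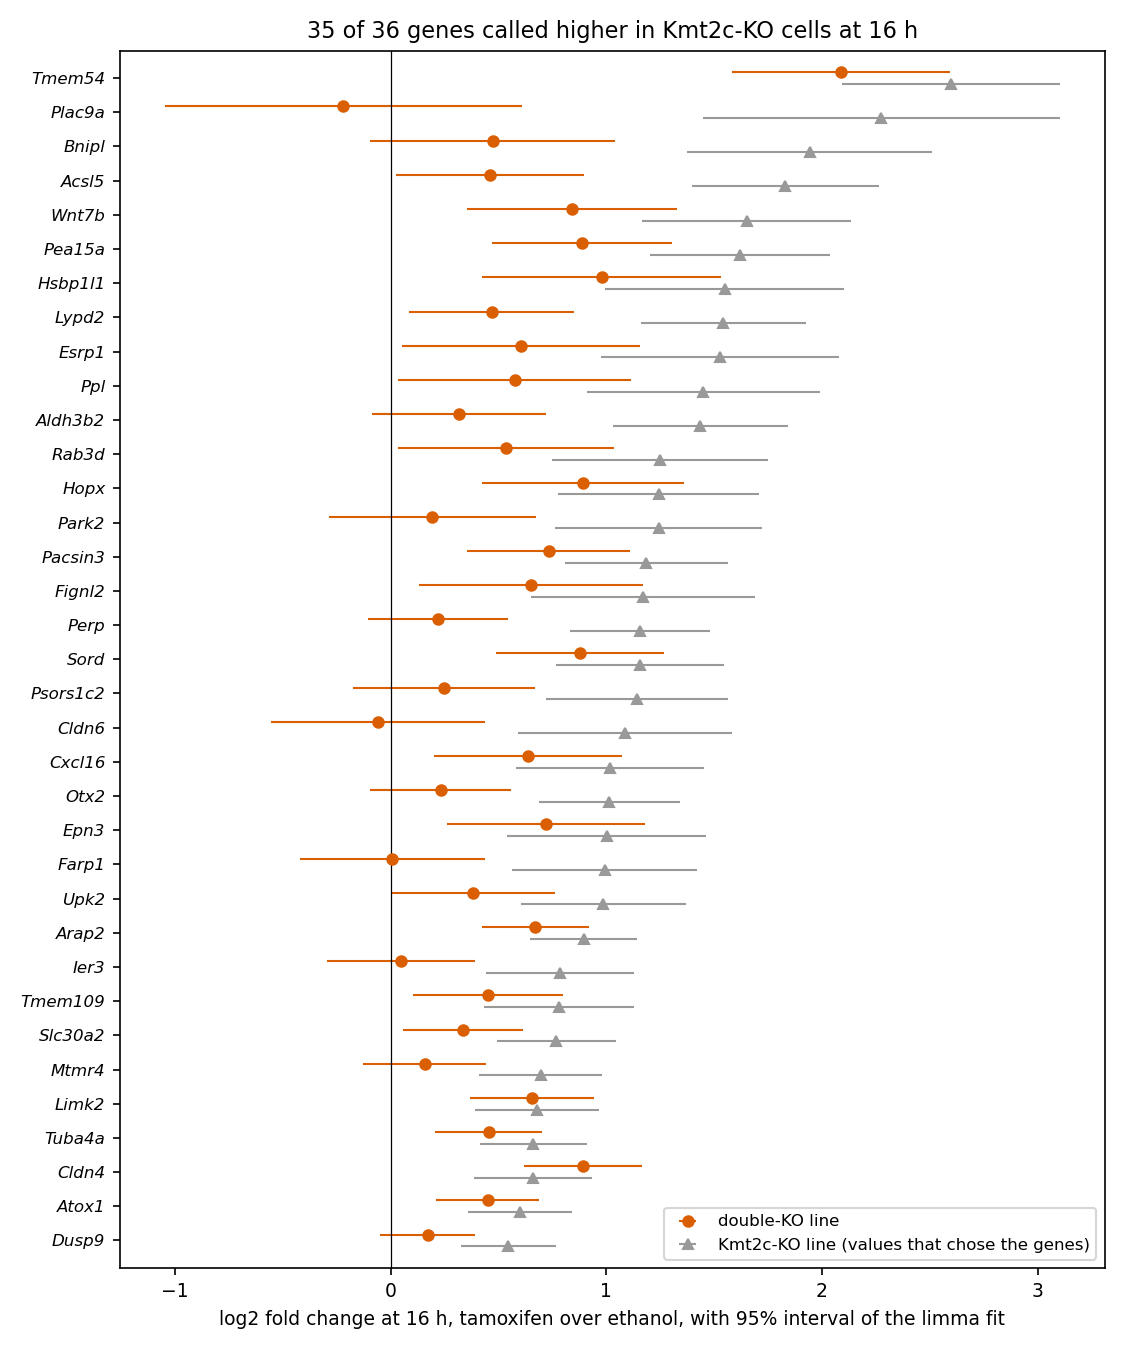
Log2 fold changes at 16 h (tamoxifen over ethanol) of 35 of the 36 genes called higher in Kmt2c-KO cells, in the double-KO line (orange circles) and in the Kmt2c-KO line (grey triangles, the values that chose the genes), with 95% intervals of the limma fit. In double-KO cells 33 of the 35 points lie above 0, and those of Plac9a (-0.22) and Cldn6 (-0.06) lie below.

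Plac9a had 0, 0.563 and 0 CPM with tamoxifen and 0, 1.47 and 0 CPM with ethanol in double-KO cells, and 6.65, 8.69 and 6.604 CPM with tamoxifen and 0, 0 and 3.96 CPM with ethanol in Kmt2c-KO cells. Kmt2c-KO cells without GRHL2-ERT had 9.19 ± 3.93 CPM of Plac9a after 16 h of tamoxifen. Cldn6, a claudin of embryonic epithelia, had 6.48, 4.30 and 4.28 CPM with tamoxifen and 5.15, 3.83 and 6.94 CPM with ethanol in double-KO cells, with overlap, and 15.7, 15.1 and 18.9 CPM with tamoxifen and 5.83, 8.73 and 7.34 CPM with ethanol in Kmt2c-KO cells, without overlap. Otx2, a transcription factor of formative cells, had 15.4, 14.6 and 16.7 CPM with tamoxifen and 12.7, 13.7 and 12.8 CPM with ethanol in double-KO cells, and 7.73, 8.64 and 9.10 CPM with tamoxifen and 4.44, 3.33 and 3.38 CPM with ethanol in Kmt2c-KO cells. The difference of responses was -2.49 for Plac9a, -1.14 for Cldn6 and -0.78 for Otx2, and none passed (limma adjusted p = 0.65, 1.0 and 1.0).

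The 362 genes called higher in Kmt2c-KO cells at 8 h (2.92% of tested genes) have 8 h fold changes that come from no 16 h library. The spread behind these calls was estimated over all 30 libraries, those at 16 h included, so the choice is not fully independent of them. In double-KO cells at 16 h their median log2 fold change was 0.18, with 286 above 0 (79.0%, against 49.6% of all tested genes). Of the 362, 129 had all tamoxifen above all ethanol libraries (7.45% of all tested genes did) and 4 were called higher (0.0322% of all). In Kmt2c-KO cells at 16 h their median was 0.31, with 314 above 0. The median difference of responses was -0.13, with 247 of 362 below 0. Over all tested genes it was 0.01, with 5941 of 12414 below 0. Choosing genes by their response in the Kmt2c-KO line favours that line, so a general difference between the lines cannot be read from this set. In the 8 genes called higher in double-KO cells at 8 h, chosen by the other line, the median difference was 0.08, with 4 below 0. Without tamoxifen replicate 2 the median of the 362 genes in double-KO cells was 0.18, with 301 above 0. The 253 genes called lower at 8 h in Kmt2c-KO cells (2.04%) had a median of -0.04 in double-KO cells and -0.21 in Kmt2c-KO cells at 16 h. In double-KO cells 148 of their log2 fold changes were below 0 and 105 above. All tamoxifen libraries lay below all ethanol libraries in 39 of the 253 (5.97% of all tested genes did). They lay above in 13 (7.45% of all). Of the 253, 1 gene, Spats2l, was called lower in double-KO cells (0.00806% of all tested genes were).

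Within the double-KO line the response at 16 h and at 8 h was compared last. No gene differed by limma, with 714 (5.75%) at an unadjusted p under 0.05, and 0 differed with array weights (171 unadjusted) or with voom weights (577). The 3 tamoxifen libraries of the double-KO line at 8 h had the lowest mean correlations within a group of the series, at 0.938 to 0.965. At 8 h 8 genes were called higher (0.0644%) and 4 lower (0.0322%), and at 16 h the 8 had a median of 0.75, all above 0, and the 4 a median of -0.29, all below 0. Tmem54, Epcam, Cldn4 and Arap2 were called at both times, with log2 fold changes of 2.09, 1.08, 0.89 and 0.67 at 16 h and 1.80, 1.26, 0.92 and 0.77 at 8 h.

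The other genes called at 8 h did not pass at 16 h in the fit over all libraries. Anxa9, an annexin, had 1.60, 1.54 and 2.25 CPM with tamoxifen and 0.744, 0.471 and 0.519 CPM with ethanol at 16 h, without overlap (0.82 ± 0.25; limma adjusted p = 0.59). Wfdc2, a secreted protein of epithelia, had 62.2, 66.3 and 58.2 CPM with tamoxifen and 44.5, 45.6 and 46.0 CPM with ethanol at 16 h (0.45 ± 0.17; limma adjusted p = 0.90), against 0.85 at 8 h. Fabp3, a fatty acid binding protein, had 136, 147 and 126 CPM with tamoxifen and 126, 125 and 141 CPM with ethanol at 16 h, with overlap (0.06 ± 0.09), against 0.50 at 8 h. Ncam1, a neural adhesion protein, and Ccnd3, cyclin D3, had log2 fold changes of -0.08 and -0.12 at 16 h, against -0.74 and -0.62 at 8 h, and the difference between times passed for neither (limma adjusted p = 0.77 for each). Gm13889 and Lefty2, the other genes called lower at 8 h, had -1.09 and -0.45 at 16 h, against -1.20 and -0.65 at 8 h, and both were called lower at 16 h with the 16 h libraries alone.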

How the data were processed

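The deposited table holds log2 values of 12428 genes in 30 libraries. Per the submitters' processing notes, the authors used Salmon and DESeq2 1.34.0 with the mm10 build; the step each served is not given in the sources used here. The deposited log2 values are the log2 of CPM plus an offset of 0.124871, as read from the values themselves. They were returned to CPM, and depth (8.86 to 22.1 M reads) was recovered from the spacing of low values, of which 94.6% to 97.9% were whole reads within 0.05 reads. Floors of 3 reads cover counting error only.

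Genes that reached a group mean of 1 CPM (12414) entered the model as log2(CPM + 1). It was limma 3.58.1 (R 4.3.3), with 10 group means over 30 libraries, a variance trend, robust moderation and 20 residual degrees of freedom. Scripts ran in Python 3.11.15 and were tested on simulated data. Calls are two-sided; p-values were adjusted by Benjamini-Hochberg across the tested genes and called under 0.05. A count test was not run because the unit is log2. Coordinates are from GENCODE M21, which held 11969 of the symbols, and promoter sequences from RefSeq GRCm38.p6, which covered 9448 tested genes.

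The comparison, the 20 gene lists and the rules were chosen with earlier results of these data known. Named genes were every called gene, the 8 largest uncalled changes each way (unadjusted p under 0.01, at least 2 CPM, groups apart, a gene symbol other than a predicted name), the 2 list members with the smallest p of each list with at least 5 tested members, Grhl2, Esr1, Kmt2c and Kmt2d, the 10 largest increases called in Kmt2c-KO cells at 16 h, and the genes called in double-KO cells at 8 h. Other named genes were chosen after their values were seen. Alternatives were pseudocounts of 0.1 and 5, no filter, median-of-ratios scaling, fewer libraries, array weights, voom weights on recovered reads, replicate blocks and leaving out each library. Some genes that these rules name are not reported here.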

Additional observations from a re-analysis of the deposited data

How the results depend on the processing

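The count of 5 calls for tamoxifen against ethanol was 9 with a pseudocount of 5, 3 with median-of-ratios scaling (3 higher and 0 lower), 31 with the 16 h libraries alone and 206 with array weights (148 higher and 58 lower). Chosen after the data were seen, it was 22 without the 3 double-KO tamoxifen libraries at 8 h and 18 without replicate 2 of these. Leaving out each library of the comparison gave 3 to 8 calls: 8 without tamoxifen replicate 1, 6 without replicate 3, and 3 without tamoxifen replicate 2 or without any 1 ethanol library. The difference of responses between lines had 18 calls with array weights and 0 to 1 when each library was left out, namely Sprr2a1 without tamoxifen replicate 3 of the double-KO line and Plac9a without ethanol replicate 3 of the Kmt2c-KO line. The cause of these changes was not tested. The difference of responses between 16 h and 8 h had 0 calls under every alternative run. Tmem54, Epcam and Cldn4 were called under every alternative run.

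The labels do not say whether the replicate numbers pair the libraries. Deviations of same-numbered libraries correlated at 0.04, -0.07 and -0.06, and those of other-numbered libraries at -0.08 to 0.10. With tamoxifen replicate 2 standing apart from its group, these correlations cannot exclude a pairing. A replicate block over all libraries gave 4 calls, without Spats2l (limma adjusted p = 0.071), and a replicate block within the 16 h double-KO libraries gave 5; for the differences between lines and between times both blocks gave 0.

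The median of genes called elsewhere, 0.47 for those of Kmt2c-KO cells at 16 h, was 0.18 for those of Kmt2c-KO cells at 8 h and 0.75 for those of double-KO cells at 8 h. Of 2023 alternative values for 119 named genes, 1891 kept direction and side of the threshold, 103 came to pass, 14 no longer passed and 15 changed sign. Of 340 list medians, 32 moved by more than the spread between libraries. Under array weights Farp1 was at -0.17. When each library was left out, log2 fold changes ran from -0.03 to 0.24 for Grhl2, -0.05 to 0.16 for Esr1, -0.44 to 0.21 for Plac9a, -0.16 to 0.04 for Ncam1, -0.23 to 0.12 for Cldn6, -0.17 to 0.15 for Farp1, -0.06 to 0.19 for Ier3 and -1.25 to 0.25 for Idi1. Reads per library limit scarce genes: 3 reads stood for 0.177 CPM or more in the 6 libraries.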

Other observations

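Sprr2a1 and Sprr2a2, near-identical copies of a small proline-rich protein of the cornified envelope, were noticed after the data were seen because they had the largest positive log2 fold change (3.08) and one of the lowest (-1.71) without passing. In 29 of 30 libraries 1 of the 2 copies was listed at 0, and which copy it was varied between libraries, so the copies are reported together. Summed, they had 22.8, 24.2 and 21.8 CPM with tamoxifen in double-KO cells at 16 h, against 9.80, 7.18 and 7.98 CPM with ethanol, without overlap. In a fit with the pair as 1 feature the log2 fold change was 1.37 ± 0.25 (limma adjusted p = 0.017 over 12413 features), and 6 features passed in place of 5. At 8 h the summed pair had 16.1, 9.37 and 16.8 CPM with tamoxifen and 5.08, 3.12 and 3.44 CPM with ethanol in the double-KO line (1.61 ± 0.25; limma adjusted p = 0.0015). In Kmt2c-KO cells at 16 h it had 0.825, 0.490 and 0.366 CPM with tamoxifen and 1.27, 1.11 and 0.360 CPM with ethanol (-0.27 ± 0.25; limma adjusted p = 1.0), close to the counting floor, and the difference of responses between the lines did not pass (1.64 ± 0.35; limma adjusted p = 0.52).

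Of 9064 genes with a mean of at least 5 CPM over the 6 libraries, 11 were listed at 0 in at least 1 of them, among them Sprr2a1, Sprr2a2, Snrpn and Snurf, a pair that share a transcript, and several predicted genes. How reads were assigned between overlapping or similar transcripts was not tested, and the values of these genes are uncertain.

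The remaining lists had 0 called genes each (0.0403% of all tested genes were called). Estrogen receptor targets had 10 of 13 genes tested and a median of -0.09 (0.01 without tamoxifen replicate 2), and Myc had the smallest p among them, with 2.18, 0.405 and 2.10 CPM with tamoxifen and 2.67, 3.36 and 2.85 CPM with ethanol. COMPASS subunits had 18 of 18 tested and a median of 0.06, p53 targets 20 of 20 and -0.16 (-0.08 without tamoxifen replicate 2), stress response genes 18 of 20 and -0.03 (-0.05 without that library), cell cycle genes 28 of 28 and -0.01, and two-cell-like genes 7 of 20 and -0.30 (-0.16 without that library).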
